A study of Homo sapiens with 4 samples.

Results

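Transcripts of 8 genes of folate-dependent carbon transfer (SHMT1, SHMT2, MTHFD1, MTHFD2, MTHFD1L, FPGS, GGH and SLC19A1) were followed in 5-fluorouracil-resistant HCT-8 cells, a drug-resistant derivative of a human colorectal cancer line. The genes were chosen by symbol for their role in the pathway, with earlier results of these data known. Each of the 8 matched a single row of the 20323 gene rows. Poly(A) RNA was sequenced from cells transfected with a METTL14 overexpression plasmid (METTL14 overexpression, replicates 1 and 2) and from cells transfected with a negative control plasmid (control, replicates 1 and 2). Cycloheximide, which stops ribosomes during translation, was given to every culture at 100 ug/mL, the controls included. METTL14 is the partner of METTL3 in the complex that writes N6-methyladenosine on mRNA, and the comparison asks how transcript levels differ when it is raised in the resistant line.

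Folates carry single carbon units for the synthesis of thymidylate, purines and methionine. Parallel reactions run in the cytosol and in mitochondria. Serine hydroxymethyltransferase (SHMT1 in the cytosol, SHMT2 in mitochondria) moves a carbon from serine to tetrahydrofolate, and enzymes of the MTHFD family (MTHFD1 in the cytosol, MTHFD2 and MTHFD1L in mitochondria) interconvert the loaded folates, so that mitochondria can release formate for use in the cytosol. SLC19A1, the reduced folate carrier, brings folates into the cell, FPGS adds the glutamate chain that retains them, and GGH, a lysosomal hydrolase, removes it. The pathway bears on 5-fluorouracil because a metabolite of the drug binds thymidylate synthase together with a reduced folate.

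Total counts were 19206661 and 19829158 with METTL14 and 20161082 and 19247784 in the controls. METTL14 itself had 7593 and 8516 counts with the plasmid, against 472 and 598 counts in the controls (log2 fold change 3.88, SE 0.141, edgeR adjusted p = 7.33e-05). All 10 markers of colorectal epithelium reached a mean of 1 CPM (counts per 1e+06 counts, scaled by the TMM method) in each group, with a summed level of 9399 and 9178 CPM with METTL14 and 18269 and 11948 CPM in the controls. In any library, markers of fibroblasts summed to at most 19.6 CPM, those of leukocytes to at most 4 CPM and those of endothelium to at most 1.85 CPM, and CD3E and KDR were at 0 throughout. Replicates were more alike with METTL14 than among the controls, with a chi-square over genes of 3.34 for each degree of freedom with METTL14 and 29.8 in the controls. Whether the replicates are separate cultures is not stated for each library. In bulk RNA, fewer cells of a type and less RNA per cell cannot be told apart.

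The 250 bases before the RefSeq transcription start are shown for both cytosolic enzymes, whose transcripts fell, and for MTHFD2, whose transcript did not pass the test. They are read 5′ to 3′ on the strand of the gene in GRCh38.p14, at chr17:18363551-18363800 (minus strand) for SHMT1, chr14:64388103-64388352 (plus strand) for MTHFD1 and chr2:74198365-74198614 (plus strand) for MTHFD2. Capitals mark matches to any of the motifs searched.
SHMT1: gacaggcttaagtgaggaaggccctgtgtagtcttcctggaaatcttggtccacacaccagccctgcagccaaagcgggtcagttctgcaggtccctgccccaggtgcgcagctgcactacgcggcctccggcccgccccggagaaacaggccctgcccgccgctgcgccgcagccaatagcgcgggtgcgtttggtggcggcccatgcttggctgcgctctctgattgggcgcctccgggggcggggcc
MTHFD1: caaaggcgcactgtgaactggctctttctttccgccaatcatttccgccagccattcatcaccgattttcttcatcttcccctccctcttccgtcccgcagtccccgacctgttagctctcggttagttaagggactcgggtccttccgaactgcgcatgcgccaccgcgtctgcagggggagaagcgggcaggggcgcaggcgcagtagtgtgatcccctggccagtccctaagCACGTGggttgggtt
MTHFD2: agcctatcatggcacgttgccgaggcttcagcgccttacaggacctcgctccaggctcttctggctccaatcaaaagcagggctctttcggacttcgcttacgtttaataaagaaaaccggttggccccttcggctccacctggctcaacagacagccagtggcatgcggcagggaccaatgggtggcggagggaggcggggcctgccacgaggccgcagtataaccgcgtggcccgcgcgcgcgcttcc
Both strands were searched for CACGTG (the E-box bound by MYC and related factors), TGATGNAA (a core of the element bound by ATF4), and TTTGGCGC and TTTCCCGC (forms of the E2F site). MTHFD1 had a single CACGTG, which begins 15 bases before its start, and 6.34% of the 35116 windows of the same length in the table hold that motif. Of the other members called lower, FPGS had a CACGTG in the window of 1 of its 3 starts (127803181 on chromosome 9), and SLC19A1 had 1 of the E2F forms, found in 1.93% of all windows, at 1 of its 4 starts (45541846 on chromosome 21). These shares are for single windows, so they are not the share expected for a gene with several starts. The windows of SHMT1 and MTHFD2 held none of these motifs, which says only that these letters are not there. SHMT2 has no entry in the table, and GGH was left out of the search of members.

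MTHFD1L has 4 starts in the same table. The windows of 2 of them, at positions 150866447 and 150866486 of chromosome 6, held both CACGTG and TGATGNAA, which do not overlap there and occur in 6.34% and 3.14% of all windows. These shares too are for single windows. The 30 bases around the TGATGNAA match (chr6:150866346-150866375, plus strand, match in capitals) are shown because MTHFD1L was the only one of the 6 members searched whose windows held TGATGNAA.
MTHFD1L: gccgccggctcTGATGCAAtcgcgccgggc

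Of the 8 genes, 5 fell with METTL14 overexpression (SHMT1, MTHFD1, SHMT2, SLC19A1 and FPGS), none rose and 3 did not pass the test (MTHFD2, MTHFD1L and GGH; edgeR quasi-likelihood test, adjusted p below 0.05 over 12700 genes). The background is high: 28.1% of all tested genes were called lower and 27% higher. All 8 genes passed the filter on low counts. Their median log2 fold change was -0.49, against -0.01 over all tested genes, and for 6 of them both METTL14 libraries lay below both controls, which was so for 40% of all tested genes. Both METTL14 libraries lay above both controls for none of the 8 and for 39.8% of all tested genes, and the groups did not overlap in either direction for 79.8%.

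**Figure D1:**
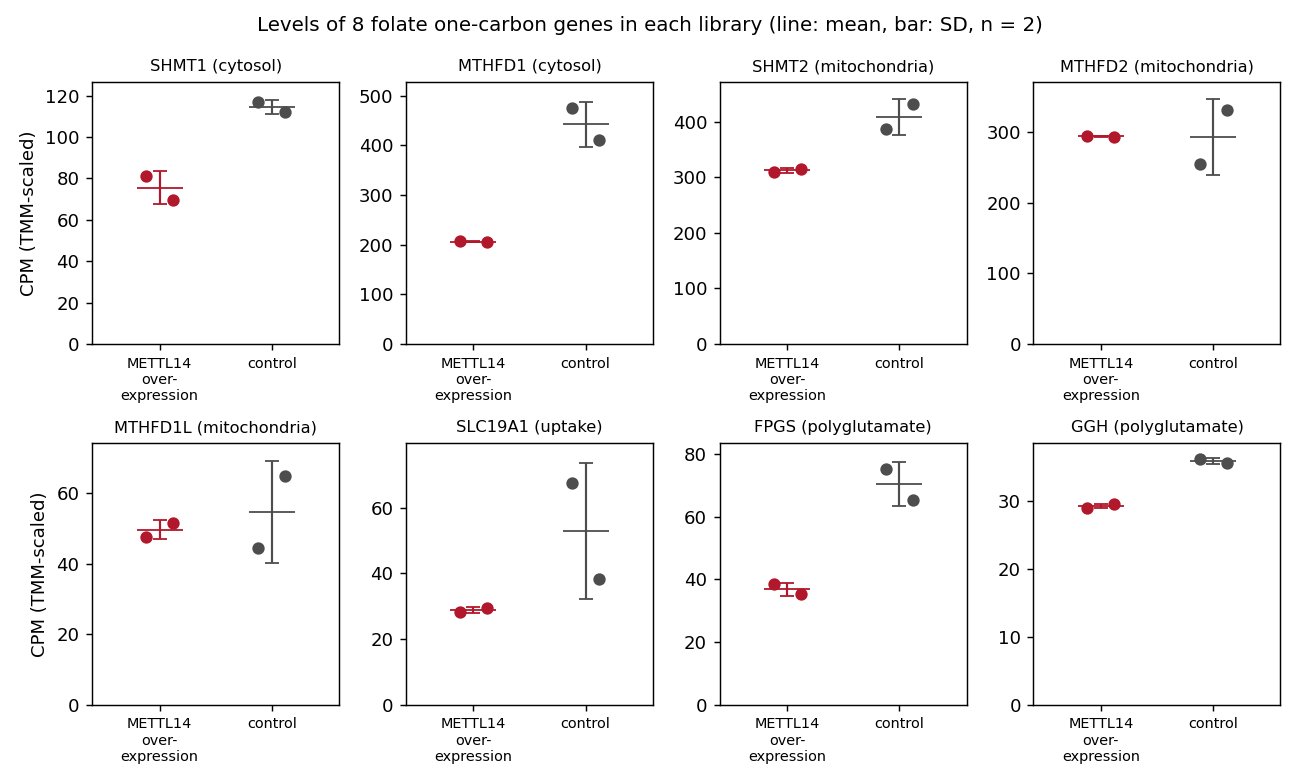
Level of each gene in CPM (TMM-scaled, linear axes from 0) in the 2 METTL14 overexpression libraries (red, left) and the 2 control libraries (grey, right), with the mean as a line and the SD as a bar. MTHFD1 lies at 206.9 and 205.3 CPM with METTL14 and 474.0 and 409.6 CPM in the controls, whereas the 2 METTL14 values of MTHFD2 lie between its controls.

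Both cytosolic enzymes fell. MTHFD1, a single protein with dehydrogenase, cyclohydrolase and formate-activating synthetase activities (ENSG00000100714, GRCh38 chromosome 14, 64388031 to 64463457 on the plus strand), had 4028 and 4155 counts with METTL14, against 9112 and 7982 counts in the controls. Both METTL14 libraries lay far below both controls and within 2 CPM of each other. The level was 206.1 ± 1.18 CPM with METTL14 and 441.8 ± 45.5 CPM in the controls (SD, n = 2 each), 2.14-fold lower (log2 fold change -1.10, SE 0.108, 95% interval -1.35 to -0.85, edgeR adjusted p = 0.000263). This was the largest log2 fold change in size among the 8 genes, but the 95% intervals of FPGS and SLC19A1 overlap that of MTHFD1. Without control replicate 2, SLC19A1 was at -1.23 and MTHFD1 at -1.20.

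SHMT1 (ENSG00000176974, GRCh38 chromosome 17, 18327860 to 18363563 on the minus strand) had 1583 and 1412 counts with METTL14, against 2248 and 2184 counts in the controls. The groups did not overlap, and here the METTL14 libraries were the more spread pair. Its level was 75.5 ± 8.18 CPM with METTL14 and 114.5 ± 3.43 CPM in the controls (SD, n = 2 each), 1.52-fold lower (log2 fold change -0.60, SE 0.111, 95% interval -0.86 to -0.34, edgeR adjusted p = 0.00327). The call was lost without METTL14 overexpression replicate 2 (log2 fold change -0.49), where the lone METTL14 library is assumed to vary like the control pair.

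Of the 3 mitochondrial enzymes, SHMT2 fell and the other two were not called. SHMT2 (ENSG00000182199, GRCh38 chromosome 12, 57229327 to 57234935 on the plus strand), the main source of mitochondrial carbon units from serine, had 6021 and 6387 counts with METTL14 and 7427 and 8423 counts in the controls. The groups did not overlap. Its level was 312.4 ± 4.39 CPM with METTL14 and 409.3 ± 32.5 CPM in the controls (SD, n = 2 each), 1.31-fold lower (log2 fold change -0.39, SE 0.101, 95% interval -0.63 to -0.15, edgeR adjusted p = 0.0142). It was no longer called without METTL14 overexpression replicate 1 (log2 fold change -0.37) or without replicate 2 (-0.40). In those fits the lone METTL14 library is assumed to vary like the control pair.

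MTHFD2 (ENSG00000065911, GRCh38 chromosome 2, 74198562 to 74217565 on the plus strand), the dehydrogenase and cyclohydrolase of mitochondria, had 5740.4 and 5949.25 estimated counts with METTL14 and 4913.44 and 6466.56 in the controls. Both METTL14 values lay between the controls. Its level was 294.4 ± 0.705 CPM with METTL14 and 293.7 ± 54 CPM in the controls (SD, n = 2 each), a log2 fold change of 0.00 (SE 0.135, 95% interval -0.31 to 0.32, edgeR adjusted p = 0.985). The direction turned on the control used: the log2 fold change was -0.17 without control replicate 1 (edgeR adjusted p = 0.0137) and 0.20 without control replicate 2 (edgeR adjusted p = 0.00306), where the lone control is assumed to vary like the METTL14 pair.

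MTHFD1L (ENSG00000120254, GRCh38 chromosome 6, 150865549 to 151101887 on the plus strand), the mitochondrial formyltetrahydrofolate synthetase, which produces formate, had 929 and 1045 counts with METTL14 and 853 and 1266 counts in the controls. The METTL14 values again lay between the controls. Its level was 49.7 ± 2.76 CPM with METTL14 and 54.7 ± 14.6 CPM in the controls (SD, n = 2 each; log2 fold change -0.14, SE 0.178, 95% interval -0.56 to 0.28, edgeR adjusted p = 0.536). Without control replicate 1 the log2 fold change was -0.38, and without control replicate 2 it was 0.16, so here too the direction turned on the control used.

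Of the uptake and polyglutamate genes, SLC19A1 and FPGS fell and GGH was not called. SLC19A1 (ENSG00000173638, GRCh38 chromosome 21, 45493572 to 45544411 on the minus strand) had 550.71 and 598.07 estimated counts with METTL14 and 1299.7 and 746.61 in the controls. The METTL14 pair was tight and below both controls, while control replicate 1 stood well above control replicate 2. Its level was 28.9 ± 0.873 CPM with METTL14 and 53 ± 20.7 CPM in the controls (SD, n = 2 each), 1.83-fold lower (log2 fold change -0.87, SE 0.242, 95% interval -1.44 to -0.30, edgeR adjusted p = 0.0183). Without control replicate 1 the log2 fold change was -0.40, and without control replicate 2 it was -1.23.

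FPGS (ENSG00000136877, GRCh38 chromosome 9, 127794597 to 127814327 on the plus strand) had 748 and 716 counts with METTL14 and 1449 and 1277 counts in the controls. The groups lay far apart. The level was 36.9 ± 2.16 CPM with METTL14 and 70.5 ± 6.96 CPM in the controls (SD, n = 2 each), 1.91-fold lower (log2 fold change -0.93, SE 0.118, 95% interval -1.21 to -0.66, edgeR adjusted p = 0.000642).

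GGH (ENSG00000137563, GRCh38 chromosome 8, 63015079 to 63039171 on the minus strand) had 565 and 597 counts with METTL14 and 696 and 694 counts in the controls. The groups did not overlap, and both pairs were tight, at 29.3 ± 0.33 CPM with METTL14 and 35.9 ± 0.416 CPM in the controls (SD, n = 2 each). The gene stood at the edge of the threshold (log2 fold change -0.30, SE 0.108, 95% interval -0.55 to -0.04, edgeR adjusted p = 0.0509). It passed when a control was left out (log2 fold change -0.28 without control replicate 1 and -0.31 without control replicate 2). In those fits the lone control is assumed to vary like the METTL14 pair. GGH was not called without METTL14 overexpression replicate 1 (log2 fold change -0.28) or replicate 2 (-0.31), nor with DESeq2 (adjusted p = 0.163).

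**Figure D2:**
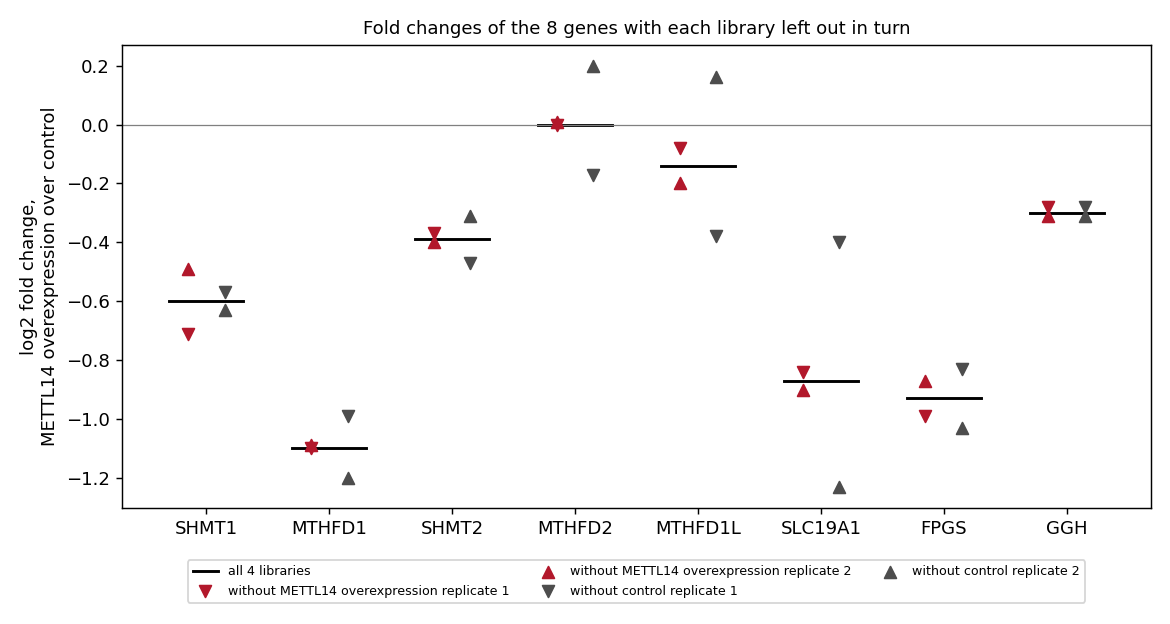
Log2 fold change (METTL14 overexpression over control) of each gene in the fit with all 4 libraries (black line) and with 1 library left out (red triangles for METTL14 overexpression libraries, grey for controls). MTHFD1 stays between -1.20 and -0.99, MTHFD2 and MTHFD1L change sign with the control left out, and SLC19A1 spans -1.23 to -0.40.

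The compartments were then compared within each library, where scaling between libraries cancels. The summed counts of SHMT2, MTHFD2 and MTHFD1L were 12690 and 13381 with METTL14 and 13193 and 16156 in the controls, and those of SHMT1 and MTHFD1 were 5611 and 5567 with METTL14 and 11360 and 10166 in the controls. The mitochondrial enzymes thus made up 69.3 and 70.6% of the counts of all 5 enzymes with METTL14 and 53.7 and 61.4% in the controls. The mean log2 ratio of mitochondrial to cytosolic counts was 1.22 with METTL14 and 0.44 in the controls, a difference of 0.78, or a 1.72-fold higher ratio, with no overlap of the groups. The difference was 0.55 without control replicate 1 and 1.01 without control replicate 2. It was 0.69 with the mean of log2 CPM in place of summed counts. MTHFD1 held most of the cytosolic counts (4028 and 4155 with METTL14, 9112 and 7982 in the controls), so this ratio depends largely on MTHFD1.

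The ratio was then taken step by step, first for the MTHFD enzymes. MTHFD2 over MTHFD1 had count ratios of 1.43 and 1.43 with METTL14 and 0.539 and 0.81 in the controls, so that MTHFD2 had the higher count of the pair in both METTL14 libraries and the lower count in both controls. MTHFD1L over MTHFD1 had ratios of 0.231 and 0.252 with METTL14 and 0.0936 and 0.159 in the controls. Neither of these ratios overlapped between the groups. Both have MTHFD1 as the denominator, which also makes up most of the cytosolic sum, so they are not separate evidence of a difference between compartments. Their log2 differences were 1.11 and 0.98, and the differences between the edgeR log2 fold changes of the same pairs were 1.10 (SE 0.173) and 0.96 (SE 0.208), with standard errors combined as if the genes were independent.

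SHMT2 over SHMT1, the only ratio taken without MTHFD1, had count ratios of 3.8 and 4.52 with METTL14 and 3.3 and 3.86 in the controls, and the groups overlapped. The log2 difference was 0.22, and the edgeR log2 fold changes differed by 0.21 (SE 0.15, combined in the same way). In a two-sided exact permutation test over the 4 libraries, the smallest p that 2 against 2 can give is 0.333. This was the p of both MTHFD ratios, and that of SHMT2 over SHMT1 was 0.667, so no ratio could pass 0.05 in this design. The difference for MTHFD2 over MTHFD1 was 0.82 without control replicate 1 and 1.41 without control replicate 2, in place of 1.11. That for MTHFD1L over MTHFD1 was 0.60 without control replicate 1 and 1.36 without control replicate 2, in place of 0.98. For SHMT2 over SHMT1 it was 0.09 without METTL14 overexpression replicate 2 and 0.11 without control replicate 1. It reached 0.34 without METTL14 overexpression replicate 1. Whether the MTHFD ratios differed more than the SHMT ratio was not tested.

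**Figure D3:**
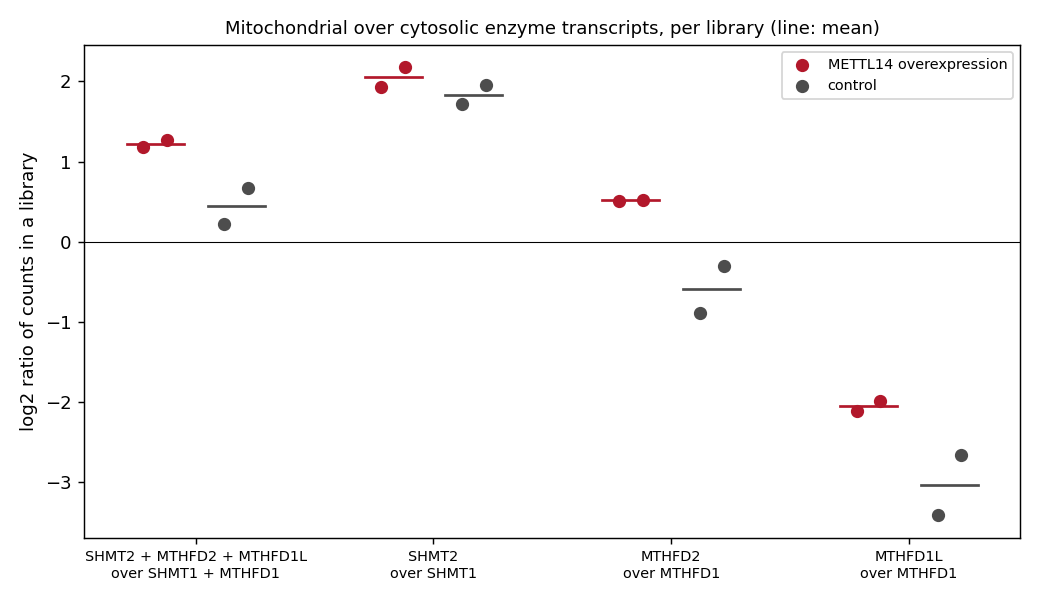
Log2 ratio of mitochondrial to cytosolic enzyme counts in each METTL14 overexpression library (red, left) and control library (grey, right), with lines at the means. The summed ratio lies at 1.18 and 1.27 with METTL14 and 0.22 and 0.67 in the controls, and only SHMT2 over SHMT1 overlaps between the groups. All the other ratios have MTHFD1 in the denominator.

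Levels of different genes were compared per kilobase, with the length of the principal GENCODE transcript. SHMT2 was the highest of the 8 in both groups, at 123.2 ± 1.73 CPM per kb with METTL14 and 161.3 ± 12.8 CPM per kb in the controls (SD, n = 2 each). With METTL14 it was followed by MTHFD2 (66.1 ± 0.158 CPM per kb) and MTHFD1 (65.7 ± 0.377), which do not differ beyond their spread, and then by SHMT1 (30.7 ± 3.32), GGH (18.2 ± 0.205), FPGS (16.2 ± 0.948), MTHFD1L (13.8 ± 0.765) and SLC19A1 (7.59 ± 0.229). In the controls MTHFD1 came second at 140.9 ± 14.5 CPM per kb, followed by MTHFD2 (65.9 ± 12.1), SHMT1 (46.5 ± 1.39), FPGS (30.9 ± 3.05), GGH (22.3 ± 0.259), MTHFD1L (15.2 ± 4.04) and SLC19A1 (13.9 ± 5.43), the last pair within their spread. The order depends on the transcript taken for the length. The longest coding form of MTHFD1 has 6814 bases, in place of 3136. It would put MTHFD1 at 30.2 CPM per kb with METTL14 and 64.8 CPM per kb in the controls. With its shortest coding form (1757 bases, in place of 4456) MTHFD2 would be at 167.6 CPM per kb with METTL14 and 167.2 CPM per kb in the controls, and SHMT1 (378 bases, in place of 2464) would be at 199.9 CPM per kb with METTL14 and 302.9 CPM per kb in the controls.

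Transcript sequence was described for the same enzymes. GGACT, a common form of the m6A site motif, occurred 5 times in SHMT1 and 3 times in MTHFD1 (2.03 and 0.957 per kb), and 2, 3 and 6 times in SHMT2, MTHFD2 and MTHFD1L (0.788, 0.673 and 1.66 per kb). The median over the 12653 tested genes with a transcript was 0.954 per kb, and 91.6% of them hold the motif at least once. GC content was 48.6% for MTHFD1, 51.5% for SHMT1, 55.2% for SHMT2, 41.4% for MTHFD2 and 51.9% for MTHFD1L, around the median of 50.1%.

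Several counts are less certain than their depth implies. MTHFD2 has 7 named pseudogenes in GENCODE, and SHMT1 and MTHFD1 have 1 each, none with a row in the files. The estimated counts of MTHFD2 and SLC19A1 are not whole numbers. Exons of SHMT2, MTHFD2, SHMT1, MTHFD1 and SLC19A1 overlap genes on the other strand, and no source used here states whether counting used strand. The overlapping genes were low for SHMT2 (NDUFA4L2, at most 2.06 CPM), MTHFD1 (ZBTB25, at most 9.29 CPM) and SLC19A1 (COL18A1, at most 6.42 CPM). They were higher for MTHFD2 (DCTN1, 152.4 and 147.5 CPM with METTL14 and 227.8 and 197.2 CPM in the controls) and for SHMT1 (SMCR8, 57.6 and 58 CPM with METTL14 and 61.8 and 46.4 CPM in the controls), and their part in these counts was not tested.

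Around these genes, 30 further genes of folate and serine metabolism were listed by role, of which 26 passed the filter. Of these 26, 9 fell, 5 rose and 12 were not called, with a median log2 fold change of -0.05. Over all tested genes 28.1% were called lower and 27% higher, so these counts lie near the background and are no result about the list. In the cytosol 6 of 10 fell and 2 rose. Fewer of these 10 were called when either METTL14 overexpression library was dropped, and fewer of all tested genes were called too. TYMS, thymidylate synthase, had 61.2 and 60.2 CPM with METTL14 and 281.3 and 208.9 CPM in the controls (log2 fold change -2.01, SE 0.152, edgeR adjusted p = 0.000124), a larger fold change than that of MTHFD1.

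The purine enzymes that take formyl groups fell less, GART by 0.47 (SE 0.102) and ATIC by 0.36 (SE 0.11) on the log2 scale, as did MTR, methionine synthase (-0.50, SE 0.106). None of these calls held without METTL14 overexpression replicate 1 or without replicate 2. In such fits the lone METTL14 library is assumed to vary like the control pair. MTHFS, which salvages 5-formyltetrahydrofolate, fell by 1.10 (SE 0.202). ALDH1L1, which oxidises formyl groups to carbon dioxide, rose by 0.46 on the log2 scale (SE 0.153, edgeR adjusted p = 0.035), a call lost with DESeq2 (adjusted p = 0.107) and when either METTL14 library was dropped. MTRR (-0.14, SE 0.121) and FTCD (0.36, SE 0.481) were not called.

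In mitochondria 9 of 11 listed genes were tested. The glycine cleavage components GCSH (log2 fold change -0.60, SE 0.11) and DLD (-0.72, SE 0.0981) and the mitochondrial folate carrier SLC25A32 (-0.60, SE 0.116) fell, with groups that did not overlap. GLDC and ALDH1L2 did not pass the filter, at no more than 0.445 CPM in any library. DMGDH, dimethylglycine dehydrogenase, had 55 and 61 counts with METTL14 and 2 and 6 counts in the controls (log2 fold change 3.78, SE 0.497). It passed the filter on low counts only through the METTL14 libraries, where it is high, so its call, although among the 5 counted above, supports nothing, and under a filter of 5 CPM it was not tested. MTHFD2L, the paralog of MTHFD2, was at 3.65 and 4.84 CPM with METTL14 and 3.64 and 3.64 CPM in the controls (0.22, SE 0.251, not called), and MTFMT, SARDH and AMT were not called either.

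Of the 5 serine synthesis and import genes, 2 rose and none fell, where 27% of all tested genes were called higher, so the count itself is no result about the list. PHGDH, the first enzyme of serine synthesis from glycolysis, had 380.7 and 357.6 CPM with METTL14 and 183.8 and 248.1 CPM in the controls (log2 fold change 0.77, SE 0.148, edgeR adjusted p = 0.00387). PSAT1, the next enzyme, had 320.1 and 335.6 CPM with METTL14 and 194.2 and 264.4 CPM in the controls (0.52, SE 0.15, edgeR adjusted p = 0.022), a value of 0.31 without control replicate 1 and a call lost without METTL14 overexpression replicate 2 (edgeR adjusted p = 0.0779). PSPH (-0.06, SE 0.123) and the mitochondrial serine importers SFXN1 (0.13, SE 0.123) and SFXN3 (0.24, SE 0.0969) were not called. Without control replicate 1, more of these 5 genes were called higher, and PSPH, at a log2 fold change of -0.19, was called lower. More of all tested genes were called in that fit as well. PHGDH alone was called higher without METTL14 overexpression replicate 2, where fewer of all tested genes were called.

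The other routes of folate uptake were not called. SLC46A1, the proton-coupled folate transporter, had 58.7 and 60.3 CPM with METTL14 and 81.4 and 57.6 CPM in the controls (log2 fold change -0.23, SE 0.162). Its log2 fold change was 0.05 without control replicate 1 and -0.46 without control replicate 2. FOLR1, a folate receptor, had 8.37 and 8.74 CPM with METTL14 and 8.27 and 8.42 CPM in the controls (0.04, SE 0.165). FOLR2 and FOLR3 had no count in any library, which allows a level of up to 0.156 CPM (3 counts in the smallest library, counting error only). Several of these further genes also share exon sequence with genes on the other strand, among those named TYMS (ENOSF1), GART (SON), MTRR (C5orf49 and FASTKD3), DLD (LAMB1), SLC25A32 (DCAF13), DMGDH (BHMT) and SLC46A1 (SARM1). MTHFS shares it with the read-through gene ST20-MTHFS on its own strand, and GCSH, AMT and SLC25A32 with other rows of the same symbol.

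**Figure D4:**
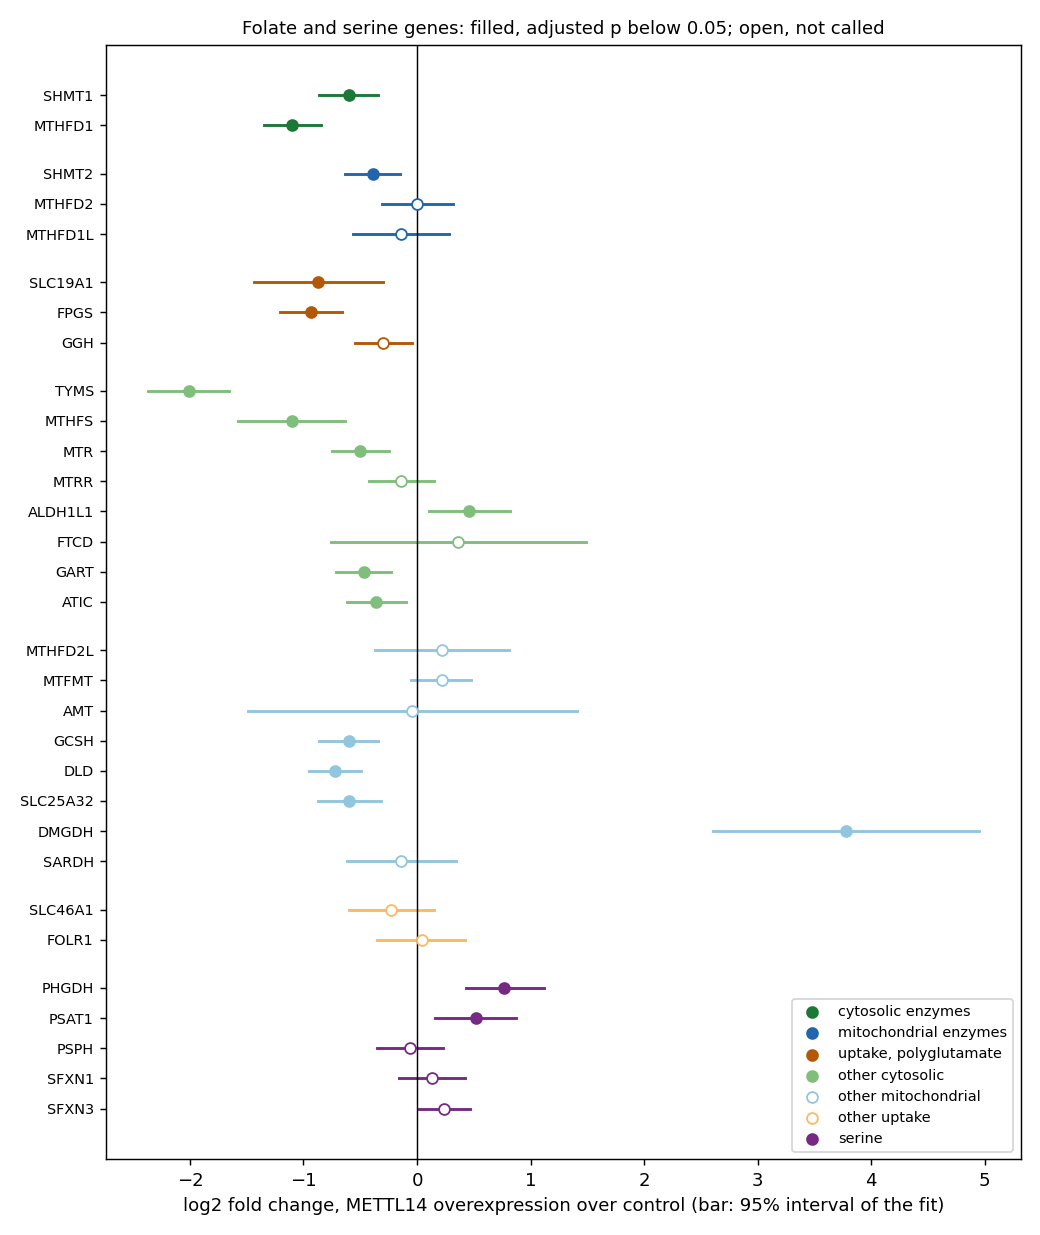
Log2 fold change (METTL14 overexpression over control) of the 8 genes and of other tested folate and serine genes, with the 95% interval of the edgeR fit as a bar. Filled points passed an adjusted p of 0.05. TYMS is furthest to the left at -2.01, MTHFD2 sits at 0.00, and PHGDH, PSAT1, ALDH1L1 and DMGDH (tested only through its METTL14 counts) are filled to the right of 0.

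The genes most like SHMT2 across the 4 libraries, by Euclidean distance between centred log2 CPM values over 12041 other genes, were TOPBP1 (distance 0.0245) and SWAP70 (0.0249), and those most like MTHFD1 were SFPQ (0.0181) and TRIR (0.0288). TOPBP1 had 77.2 and 79.2 CPM with METTL14 and 95.2 and 106.4 CPM in the controls. SFPQ had 124.4 and 122.5 CPM with METTL14 and 281.2 and 242.3 CPM in the controls. With 4 libraries in 2 groups, this likeness rests on the fold change and on the spread of the controls.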

How the data were processed

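Groups and replicate numbers of the 4 libraries came from the labels. Per the labels' protocols, Trizol RNA was enriched for mRNA, prepared with a NEBNext Ultra kit and read on a NovaSeq instrument. The submitters' processing notes list fastp, Bowtie2, HISAT2, StringTie, RSEM and hg18 without versions or roles. Of the 20323 gene identifiers, 20171 occur in GENCODE release 29 (GRCh38), so the build behind the counts is unclear. Coordinates and lengths given here are those of GENCODE.

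The authors deposited expected counts by gene without normalization, of which 10.8 to 11.6% in a library were not whole. They were rounded before testing. Each member symbol was on 1 row. The 102 rows lacking a symbol held at most 0.037% of counts.

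Tests used the robust quasi-likelihood fit of edgeR 4.0.16 in R 4.3.3 after filterByExpr (count minimum 10) and TMM scaling, adjusted by Benjamini-Hochberg over 12700 genes. A standard error is the absolute log2 fold change over the root of its F statistic. The labels do not tie replicates to separate cultures, although the series text describes independent experiments, and p-values may measure technical spread only. The scripts were tested on simulated data.

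Alternatives were DESeq2 1.42.0, its size factors in edgeR, limma-voom (limma 3.58.1), other filters, no robust step, unnormalized library totals, replicate number as a term and leaving out each library. Ratios were tested with scipy 1.17.1. Promoters are from RefSeq, and all starts of a gene were searched, for the members other than SHMT2 and GGH. The windows printed whole are those of the start nearest to that of the GENCODE principal transcript. Named genes are the 8 members, METTL14, the listed folate and serine genes, and the 2 genes nearest to SHMT2 and to MTHFD1 with a mean of at least 1 CPM. Some genes of the lists are counted but not reported singly here. The members, lists and motifs were chosen with earlier results of these data known.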

Additional observations from a re-analysis of the deposited data

How the results depend on the processing

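With each library left out in turn, the number of genes called ranged from 2307 to 4452 higher and from 2307 to 4575 lower (3429 and 3569 with all libraries), and that of the 26 folate and serine genes from 3 to 7 higher and from 6 to 10 lower (5 and 9). The log2 fold change ranged from -0.47 to -0.31 for SHMT2, -0.17 to 0.20 for MTHFD2, -0.38 to 0.16 for MTHFD1L, -0.71 to -0.49 for SHMT1, -1.20 to -0.99 for MTHFD1, -1.23 to -0.40 for SLC19A1, -1.03 to -0.83 for FPGS and -0.31 to -0.28 for GGH. Among the further genes, signs turned for AMT (-1.21 to 0.59, and 0.01 with unnormalized library totals), SARDH (-0.29 to 0.03), SLC46A1 (-0.46 to 0.05), PSPH (-0.19 to 0.08) and SFXN1 (-0.02 to 0.29), none of them called with all libraries.

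Outside the omissions, the calls of 7 of the 8 members did not change with any alternative run. GGH passed, at a log2 fold change of -0.30, with limma-voom (adjusted p = 0.0496), without the robust step (edgeR adjusted p = 0.05, just below the threshold) and with replicate number as a term (0.0467). It was not called with DESeq2 (adjusted p = 0.163), its size factors in edgeR (edgeR adjusted p = 0.0593) or unnormalized library totals (0.104). Nor was GGH called with no filter (0.0618) or a filter of 5 CPM (0.0641), both by edgeR. Same-numbered libraries did not deviate together (correlation 0.0443 across genes), so the numbers were not used as pairs. With the replicate block, 3797 genes were higher and 3903 lower. The cause of these differences was not tested. With a control left out, the lone control is assumed to vary like the METTL14 pair. With a METTL14 library left out, the lone METTL14 library is assumed to vary like the control pair, which was the more spread over genes.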
